A study of Mus musculus with 11 samples.

Results

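Chemokines are small secreted proteins that direct the migration of cells, and the genes for them and for their receptors were read here across mouse prostates of 4 genotypes. The rule for the members uses the gene symbol and no measured value: all loci whose symbol is CCL, CXCL, CCR, CXCR or ACKR followed by a number, together with Cx3cl1, Cx3cr1, Xcl1 and Xcr1. This gave 57 of the 29291 loci in the deposited tables, of which 35 were ligands and 22 were receptors. RNA was sequenced from prostate tissue of C57BL/6 mice at 15 months of age, 1 library per mouse. The groups were wild type (n = 3), Pb-ERG (n = 3), Trp53pcR172H/- (n = 2) and mice of both genotypes, called double-mutant here (n = 3). The study describes the double-mutant tissue as prostate tumours. Genotype and tumour state therefore cannot be told apart in comparisons with that group. Pb-ERG mice, which the study writes Pb-T2-ERG, carry a TMPRSS2-ERG transgene driven by the probasin promoter, which is active in prostate epithelium. In Trp53pcR172H/- mice the probasin-driven Cre4 recombinase leaves prostate epithelial cells with 1 Trp53 allele that encodes the R172H mutant and 1 deleted allele. Both engineered changes thus arise in the epithelium. The stroma, the vessels and the blood cells of Trp53pcR172H/- and double-mutant mice keep unrecombined Trp53 alleles. Of these, 1 is the R172H allele with its loxp-stop-loxp cassette, so such cells are not wild type at Trp53. The study left out 1 more Trp53pcR172H/- mouse because of poor data quality.

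Chemokines are named for the spacing of their first cysteines, as CC (Ccl), CXC (Cxcl), CX3C (Cx3cl1) and XC (Xcl1) proteins. They act on G protein-coupled receptors on leukocytes and other cells, and many ligands share a receptor. The atypical receptors Ackr1 to Ackr4 bind chemokines without G protein signalling and transport or remove them. In tissues, epithelium, fibroblasts, endothelium and resident macrophages all can make chemokines, and inflammatory ligands such as Cxcl1 and Cxcl10 are textbook targets of NF-kappaB and of interferon signalling.

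Promoter sequences were read from RefSeq (GRCm38.p6) for 43 of the 57 members, which had 47 windows of 250 bases upstream of a transcription start. The window of 6 of these 47 held the kappaB motif GGGANNTTCC on either strand, compared with 1.21% of 32851 mouse promoter windows of the same length. These 6 belonged to Cxcl1, Cxcl2, Cxcl3, Cxcl10, Ccl1 and Ccr3. An ISRE-type motif, GAAANNGAAA, was found upstream of Ccl19, Cxcl10 and Cxcl14 (2.98% of all windows), and the ETS motif ACNGGAAG, the kind of site to which ERG binds, was in 8 of 47 windows (6.57% of all windows). The AP-1 motif TGANTCA was in 5 of 47 (6.75% of all windows). A match describes letters in a window and not an occupied site. The windows of 5 genes are printed 5′ to 3′ as sequence context for genes described below: the neutrophil-attracting ligands Cxcl1, Cxcl2 and Cxcl3 and the interferon-induced ligand Cxcl10, which carry the kappaB motif, and Cxcl15, which lies in the same gene cluster as Cxcl1 to Cxcl3 and has none of these 4 motifs. They are chr5:90890995-90891244 (plus strand), chr5:90903649-90903898 (plus), chr5:90785851-90786100 (plus), chr5:92348890-92349139 (minus) and chr5:90794284-90794533 (plus). Capitals mark kappaB motifs, which overlap on both strands in Cxcl1, Cxcl2 and Cxcl3, the ETS motif downstream of it in Cxcl3, and, from left to right in Cxcl10, the ISRE-type, kappaB and AP-1 motifs.
Cxcl1: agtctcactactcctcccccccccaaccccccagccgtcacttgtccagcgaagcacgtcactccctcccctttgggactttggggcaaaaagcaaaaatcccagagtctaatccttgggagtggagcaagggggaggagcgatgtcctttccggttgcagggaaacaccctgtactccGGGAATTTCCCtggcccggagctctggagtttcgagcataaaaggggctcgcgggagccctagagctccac
Cxcl2: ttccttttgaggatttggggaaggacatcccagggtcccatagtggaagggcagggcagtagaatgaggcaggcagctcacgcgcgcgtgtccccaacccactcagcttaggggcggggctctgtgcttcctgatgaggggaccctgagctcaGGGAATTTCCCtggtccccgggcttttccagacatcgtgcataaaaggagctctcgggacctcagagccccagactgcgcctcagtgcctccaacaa
Cxcl3: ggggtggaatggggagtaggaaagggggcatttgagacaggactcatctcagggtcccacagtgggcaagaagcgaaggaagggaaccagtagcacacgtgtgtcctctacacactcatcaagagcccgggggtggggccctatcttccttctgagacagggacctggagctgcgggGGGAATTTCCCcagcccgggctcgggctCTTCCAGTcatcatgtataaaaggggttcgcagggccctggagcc
Cxcl10: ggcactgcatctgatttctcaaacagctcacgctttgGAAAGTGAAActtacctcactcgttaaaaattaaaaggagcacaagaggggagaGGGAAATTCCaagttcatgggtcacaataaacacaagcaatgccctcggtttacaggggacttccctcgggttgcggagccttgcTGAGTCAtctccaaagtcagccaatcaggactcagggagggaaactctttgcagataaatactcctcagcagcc
Cxcl15: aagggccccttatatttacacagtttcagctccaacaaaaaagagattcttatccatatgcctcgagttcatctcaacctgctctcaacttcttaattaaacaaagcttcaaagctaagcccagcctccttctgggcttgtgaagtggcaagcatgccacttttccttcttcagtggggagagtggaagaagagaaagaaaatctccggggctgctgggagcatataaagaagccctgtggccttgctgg

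Between 14280978 and 51965100 fragments stood behind the values of a library, and between 60.3% and 95.5% of them fell in listed genes. Values are FPKM, that is fragment counts divided by exon length and library size, so that levels can be compared between genes, and at the depths here 1 fragment on 1 kb of exon equals an FPKM of 0.0192 to 0.070. Erg was at 0.457 to 0.851 in wild type, 5.81 to 11.5 in Pb-ERG, 0.441 and 0.768 in Trp53pcR172H/- and 6.65 to 19.6 in double-mutant libraries, as the labels give it. The 6 luminal epithelial markers summed to 774 to 1710 in every library, and all 3 basal markers, all 5 smooth muscle markers and 2 of 4 secreted prostate proteins were lower in the double-mutant group than in wild type (adjusted p under 0.05). Small non-coding RNA was read from the genes Rn7sk, Rpph1 and Rmrp only. Their sum took 4.67% to 10.34% of fragments in double-mutant prostates, 5.55% in wild-type replicate 2, 7.06% in Trp53pcR172H/- replicate 2 and 0.89% to 1.76% in the others. The seminal vesicle markers summed to 7984, 226 and 10217 in wild type and 24908, 61.9 and 67.3 in Pb-ERG replicates 1 to 3. They summed to 9938 and 3716 in Trp53pcR172H/- and to 293, 619 and 74.5 in double-mutant prostates. Their part in the chemokine values was not tested. In bulk tissue, fewer cells of a type and less RNA per cell cannot be told apart.

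Ligand transcripts as a whole were more abundant in prostates with the ERG transgene. The 35 ligands summed to 67.9, 96.4 and 67.2 FPKM in wild type, 93.4, 213 and 316 in Pb-ERG, 90.4 and 88.7 in Trp53pcR172H/-, and 358, 307 and 851 in double-mutant prostates. Every double-mutant library lay above every wild-type library, and Pb-ERG replicate 1 lay within the wild-type range. The 22 receptors summed to 27.8, 22.1 and 21.9 in wild type, 23.5, 27.6 and 41.2 in Pb-ERG, 25.0 and 25.3 in Trp53pcR172H/-, and 25.6, 43.6 and 82.7 in double-mutant prostates, so that the receptor sums of the double-mutant and wild-type libraries overlapped. In wild type the most abundant ligands by group mean were the eosinophil attractant Ccl11 (14.1 ± 4.33, SD, n = 3), Cxcl14 (12.0 ± 1.2) and Ccl6 (10.3 ± 5.08), neighbours that did not differ beyond their spread. The scavenging receptor Ackr3 led the receptors there. In the double-mutant group the highest means were those of Cxcl15, Ccl8, Cxcl14 and Ccl6, and the SD of Ccl8 (102) and of Ccl6 (108) exceeded their means of 73.1 and 68.8.

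**Figure D1:**
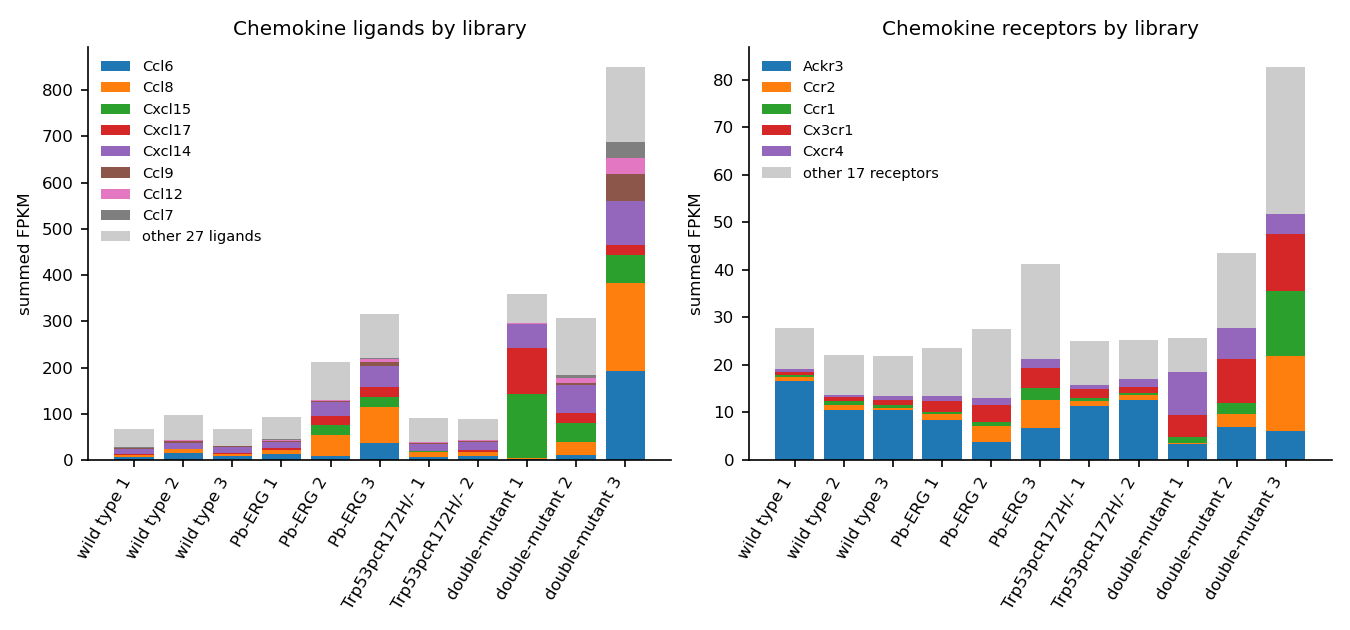
Summed FPKM of the 35 chemokine ligands (left) and 22 receptors (right) in each of the 11 libraries, with members of high level drawn apart and the others summed in grey. The 3 double-mutant libraries reach 307 to 851 for ligands against 67.2 to 96.4 in wild type, with Cxcl15 and Cxcl17 leading replicate 1 and Ccl6 and Ccl8 leading replicate 3.

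Of the 57 members, 40 reached an FPKM of 1 in 2 or more libraries and were tested (29 ligands and 11 receptors), 36 were detected in all 11 libraries, and 4 (Cxcr1, Cxcr2, Cxcl3 and Ccr8) had 0 fragments in all wild-type libraries. The 17 untested members were the ligands Ccl1, Ccl19, Ccl20, Ccl22, Cxcl3 and Cxcl11 and the receptors Ccr3, Ccr4, Ccr6, Ccr7, Ccr8, Ccr9, Ccr10, Cxcr2, Cxcr5, Xcr1 and Ackr2, none of which exceeded an FPKM of 1.78 in any library. A member can pass this filter through the group in which it is high, so counts among the tested members are descriptions. Differences below are differences of group means of log2(FPKM + 1), called log2 differences, and understate changes of members near or under an FPKM of 1. They are given with their standard error and the Benjamini-Hochberg adjusted p of limma over 15583 genes.

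The first comparison asked how these genes differed between the double-mutant tissue, described as tumours by the study, and wild-type prostate. At an adjusted p under 0.001, the threshold used by the study, 4 of 40 members were higher in double-mutant prostates, namely the ligands Cxcl15 and Cxcl16 and the receptors Cxcr4 and Cx3cr1, and none was lower (0 of 40 in limma and in limma-voom; 25 of 40 had an unadjusted p under 0.05 in either direction). Among all genes tested, 3.48% were higher and 0.481% lower at this threshold. At 0.05, 17 members were higher and 3 lower, against 19.1% and 6.26% of all genes. The 17 were 13 ligands (Cxcl1, Cxcl10, Cxcl14, Cxcl15, Cxcl16, Cxcl17, Ccl2, Ccl4, Ccl12, Ccl17, Ccl25, Ccl28 and Cx3cl1) and 4 receptors, among them Cxcr1, Cxcr4 and Cx3cr1, and the 3 were Ccl11, Ackr3 and Ackr4. The median log2 difference was 1.24 over the 40 tested members and 0.245 over all genes. With either of the other scalings tried, which moved the median of all genes to 0.04 or 0.03, 14 members were higher and 3 lower at 0.05. The calls over all genes then split into 2359 higher and 2161 lower (median of ratios) or 2329 and 2219 (trimmed mean), instead of 2969 and 976. Over all 57 members, irrespective of the filter, all 3 double-mutant libraries lay above all 3 wild-type libraries for 18 of 35 ligands and 9 of 22 receptors, and below for 0 ligands and 2 receptors. The same held for 23.7% (above) and 8.4% (below) of all 29291 loci. In 20 other fits, which changed a setting or left out 1 library each, 9 of the 20 members stayed past 0.05 throughout: Cxcl1, Cxcl14, Cxcl15, Cxcl16, Cxcl17, Cx3cl1, Cxcr4 and Cx3cr1, all higher, and Ackr4, lower. Each of the other 11 calls was lost in at least 1 fit. Without wild-type replicate 1, 2 and 3, 9, 12 and 12 members were past 0.05, with 15 without double-mutant replicate 2 and 14 without replicate 3. Calls over all genes in these fits are not given here, so these counts are not read as particular to the members.

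**Figure D2:**
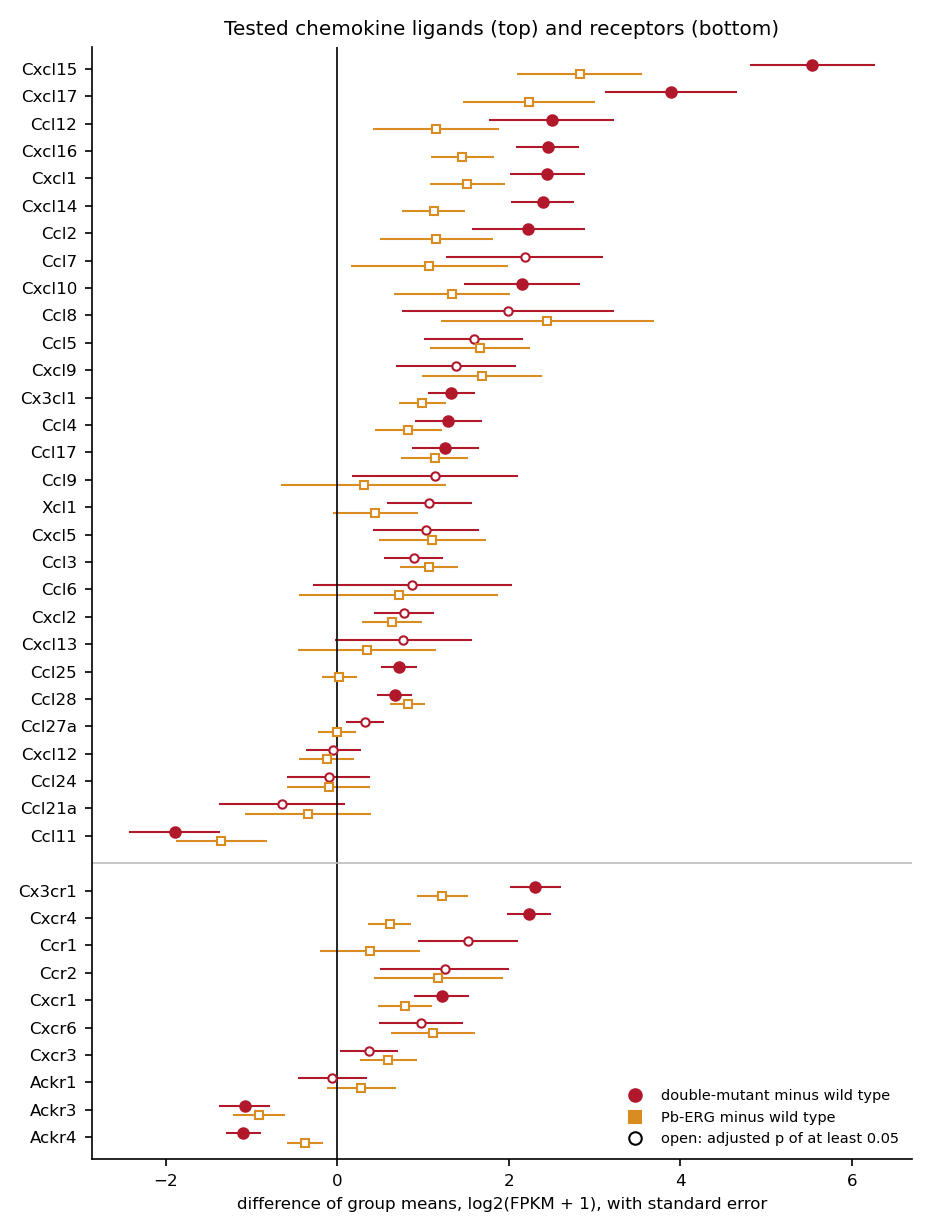
Log2 differences from wild type of 39 of the 40 tested members, with standard errors, in double-mutant (circles) and Pb-ERG (squares) prostates, ligands above and receptors below the grey line. Filled symbols mark an adjusted p under 0.05, which 19 of the members drawn reached in the double-mutant group and 0 in Pb-ERG, and Cxcl15 lies farthest to the right at 5.54.

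Cxcl15, known as lungkine, is a CXC ligand of mucosal epithelium that attracts neutrophils. It lies at chr5:90794534-90803067 (GRCm38). Wild-type libraries had an FPKM of 0.625, 0.375 and 0.625, with 1.57, 22.4 and 20.5 in Pb-ERG, 1.12 and 0.461 in Trp53pcR172H/-, and 138, 40.9 and 62.1 in double-mutant prostates. Behind these stood 28, 13 and 21 fragments in wild type and 5525, 2360 and 2774 in the double-mutant group, so counting error does not limit the difference. Every double-mutant library was above every library of the other groups, and Pb-ERG replicate 1 stood far below the other Pb-ERG libraries. The log2 difference from wild type was 5.54 (SE 0.726, adjusted p = 0.000454), and over 20 other fits its adjusted p ranged from 1.61e-05 to 0.00535.

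Cxcl17, another chemokine of mucosal surfaces, at chr7:25400053-25412886, had the second-largest difference. It was at 3.31, 0.565 and 1.16 in wild type, 2.5, 18.1 and 21.9 in Pb-ERG, 0.961 and 3.04 in Trp53pcR172H/- and 100.2, 21.9 and 19.6 in double-mutant prostates. Its values in the double-mutant and Pb-ERG groups overlapped, and replicate 1 was the highest double-mutant library and the lowest Pb-ERG library, as for Cxcl15. The 6 luminal epithelial markers, of which 1 rose and 1 fell against wild type at 0.05, summed to 1091 to 1478 in wild type and 1710, 938 and 819 in double-mutant replicates 1 to 3, and their part in the Cxcl15 and Cxcl17 levels was not tested. The log2 difference from wild type was 3.89 (SE 0.773, adjusted p = 0.00465).

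Cxcl14, a ligand of epithelium and fibroblasts that was not paired with a receptor here, was abundant in every library. It was at 10.6, 12.8 and 12.6 in wild type, 14.8, 29.7 and 45.6 in Pb-ERG, 14.4 and 17.7 in Trp53pcR172H/-, and 51.4, 60.7 and 97.3 in double-mutant prostates. The double-mutant libraries lay above all others, and the log2 difference of 2.40 (SE 0.365, adjusted p = 0.00104) just missed 0.001. In 4 of the 20 other fits it passed that threshold. Of 5 fibroblast markers, none at 0 in any library, 3 were higher in the double-mutant group at 0.05, with sums of 234 to 316 in wild type and 359, 429 and 941 in double-mutant replicates 1 to 3, and their part in the Cxcl14 level was not tested.

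Cxcl16, a ligand that occurs both anchored in the membrane and shed, binds Cxcr6 on T cells. It rose from 2.5, 3.66 and 4.27 in wild type to 13.2, 33.1 and 28.1 in double-mutant prostates, with 8.73, 11.2 and 14.1 in Pb-ERG and 11.04 and 4.64 in Trp53pcR172H/-. All wild-type libraries lay below every library of the other groups, while double-mutant replicate 1 lay below Pb-ERG replicate 3. The log2 difference from wild type was 2.45 (SE 0.37, adjusted p = 0.000996). Cxcl16 passed 0.001 in only 4 of 20 other fits and 0.05 in all of them. Exons of Cxcl16 overlap exons of Zmynd15 on the opposite strand, and the use of strand in the counting is not given in the sources used here. Its receptor Cxcr6 was at 0.552, 1.04 and 0.368 in wild type and 0.365, 3.48 and 4.38 in double-mutant prostates, which overlapped (log2 difference 0.98, adjusted p = 0.169).

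Cxcr4, the receptor through which Cxcl12 guides leukocytes, stem cells and tip cells of growing vessels, had the smallest adjusted p of all members. It lies at chr1:128588199-128592290. Wild-type libraries had an FPKM of 0.447, 0.511 and 0.737, with 1.06, 1.34 and 1.81 in Pb-ERG, 0.828 and 1.55 in Trp53pcR172H/-, and 8.99, 6.63 and 4.19 in double-mutant prostates. The double-mutant libraries stood above all others and the wild-type libraries below all others. The log2 difference was 2.23 (SE 0.255, adjusted p = 0.000213), the adjusted p stayed between 0.000152 and 0.00398 over the other fits, and it passed 0.001 in 12 of 20. All 6 markers of blood endothelium were also higher in the double-mutant group (adjusted p under 0.05), with sums of 14.6 to 21.6 in wild type, 20.0 to 27.0 in Pb-ERG, 22.2 and 24.3 in Trp53pcR172H/- and 75.5, 65.1 and 50.6 in double-mutant prostates, in the same order of replicates as Cxcr4. No endothelial marker was at 0 in any library, and their part in the Cxcr4 result was not tested.

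Cxcl12, the chemokine ligand of Cxcr4, was at 4.42, 5.55 and 3.35 in wild type and at 1.96, 5.82 and 5.95 in double-mutant prostates (log2 difference -0.05, SE 0.324, adjusted p = 0.932), a difference whose sign changed when wild-type replicate 2 or double-mutant replicate 1 was left out. Ackr3, a scavenging receptor that binds Cxcl12 without G protein signalling, fell. Wild-type libraries were at 16.5, 10.5 and 10.5 FPKM, with 8.49, 3.75 and 6.73 in Pb-ERG, 11.4 and 12.7 in Trp53pcR172H/-, and 3.45, 6.87 and 6.01 in double-mutant prostates. All double-mutant and all Pb-ERG libraries lay below all wild-type libraries, with a log2 difference of -1.08 for double-mutant prostates (SE 0.303, adjusted p = 0.0244), which was past 0.05 in 16 of 20 other fits.

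**Figure D3:**
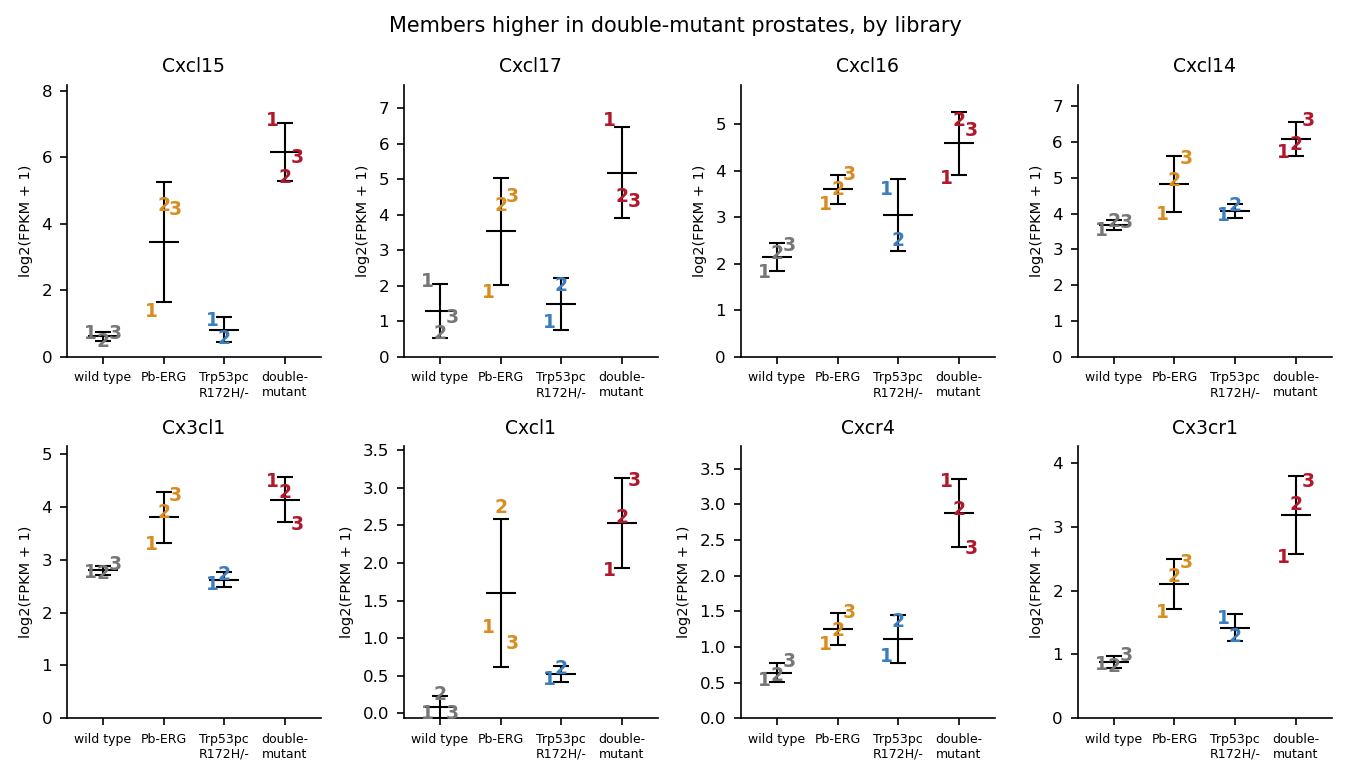
Log2(FPKM + 1) of 8 members that were higher in double-mutant than in wild-type prostates, by genotype; each digit is 1 library, drawn as its replicate number, and bars give the group mean and SD (n = 3, or 2 for Trp53pcR172H/-). For Cxcl15, Cxcl14, Cxcr4 and Cx3cr1 the 3 double-mutant libraries lie above all others, whereas for Cxcl17, Cxcl16, Cx3cl1 and Cxcl1 they overlap Pb-ERG.

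Cx3cl1 is the main ligand of Cx3cr1, and both were higher in the double-mutant group. Cx3cl1, a membrane-anchored ligand of epithelium and endothelium, was at 5.81, 5.71 and 6.48 in wild type, 8.73, 13.96 and 17.6 in Pb-ERG, 4.76 and 5.63 in Trp53pcR172H/-, and 21.3, 18.2 and 11.7 in double-mutant prostates (log2 difference 1.33, SE 0.27, adjusted p = 0.00518). The groups without the transgene did not overlap those with it. Its receptor Cx3cr1, carried by monocytes and tissue macrophages, was at 0.787, 0.755 and 0.981 in wild type, 2.16, 3.64 and 4.41 in Pb-ERG, 1.96 and 1.42 in Trp53pcR172H/-, and 4.71, 9.16 and 12.1 in double-mutant prostates. Here too the double-mutant libraries were above and the wild-type libraries below all others (log2 difference 2.31, SE 0.299, adjusted p = 0.000426), and the adjusted p was past 0.05 in all 20 other fits. Among the 11 macrophage and monocyte markers, none of which was at 0 in any library, 7 were higher in the double-mutant group at 0.05. Their sums ranged from 45.5 to 77.3 in wild type and from 87.5 to 237 in Pb-ERG, and were 64.0 and 71.1 in Trp53pcR172H/- and 109, 211 and 633 in double-mutant replicates 1 to 3, the same order as Cx3cr1 within the double-mutant group and the reverse of Cx3cl1. The part of these cells in the Cx3cr1 result was not tested.

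The ligands that bring in neutrophils were close to absent in wild type. Cxcl1, which acts on Cxcr2, had 0, 3 and 0 fragments in the wild-type libraries, with an FPKM of 0, 0.193 and 0, and 1.21, 5.65 and 0.906 in Pb-ERG, 0.367 and 0.514 in Trp53pcR172H/- and 2.73, 5.10 and 7.54 in double-mutant prostates. No double-mutant library overlapped the wild-type or Trp53pcR172H/- libraries, while Pb-ERG replicate 2 lay within the double-mutant range (log2 difference from wild type 2.45, SE 0.435, adjusted p = 0.00253). Cxcl2 and Cxcl5 reached 1.92 and 4.99 in Pb-ERG replicate 2 and 1.19 and 3.94 in double-mutant replicate 2, and did not exceed 0.0601 in wild type. The adjusted p of their log2 differences in the double-mutant group was 0.126 for Cxcl2 and 0.245 for Cxcl5. Cxcl3 had at most 15 fragments in any library.

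Of the receptors of these ligands, Cxcr1 had 0 fragments in all wild-type libraries, 11, 41 and 61 in Pb-ERG, 1 and 1 in Trp53pcR172H/-, and 53, 20 and 60 in double-mutant prostates. Against a floor of 3 fragments over the wild-type group, this was at least 35.2-fold higher in the double-mutant and at least 19.5-fold higher in the Pb-ERG libraries, each group summed, and the fitted log2 difference had an adjusted p of 0.0176 in the double-mutant group. Cxcr2, which did not pass the filter, had 0 fragments in wild type, 40, 32 and 9 in Pb-ERG and 12, 39 and 28 in double-mutant prostates, at least 20.9-fold above the same floor in the double-mutant group and at least 13.98-fold in Pb-ERG. These bounds cover counting error only. The 8 neutrophil markers summed to 2.16 to 3.15 in wild type, 1.59 to 9.26 in Pb-ERG, 0.492 and 3.68 in Trp53pcR172H/- and 10.3, 63.3 and 178 in double-mutant replicates 1 to 3, and 4 of the 5 tested were higher in the double-mutant group at 0.05. Mpo, Ngp and Camp, made by immature neutrophils, were at 0 in wild type and at most 0.475 elsewhere. Cxcr1 was as high in double-mutant replicate 1 (1.89) as in replicate 3 (1.92), while the neutrophil sums of these libraries were 10.3 and 178; the part of neutrophils in the Cxcr1 and Cxcr2 values was not tested.

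Cxcl9, Cxcl10 and Cxcl11 are induced by interferon and draw T cells that carry Cxcr3. Cxcl10 was at 0.365, 0.386 and 0.133 in wild type, 0.471, 3.08 and 4.77 in Pb-ERG, 0.422 and 0.538 in Trp53pcR172H/-, and 0.743, 13.9 and 6.25 in double-mutant prostates (log2 difference 2.15, SE 0.678, adjusted p = 0.0391). Double-mutant replicate 1 stood close to the wild-type range, and the call was held in only 5 of 20 other fits; exons of Cxcl10 overlap those of Art3 on the opposite strand. Cxcl9 was at 0.196 to 0.254 in wild type, 0.123, 5.85 and 7.04 in Pb-ERG and 0.439, 5.88 and 2.31 in double-mutant prostates (adjusted p = 0.168). Cxcl11 did not exceed an FPKM of 0.961. Cxcr3 was at 0.219 to 0.426 in wild type and 0.0922, 0.638 and 1.62 in double-mutant prostates (adjusted p = 0.442), and the 7 T cell markers summed to 1.74 to 2.74 in wild type and 0.554, 9.39 and 11.9 in double-mutant prostates, the same order of replicates. Cd3e was at 0 in double-mutant replicate 1.

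The CC chemokines that recruit monocytes differed widely between the double-mutant libraries. Ccl2, the main ligand of Ccr2, was at 0.467, 0.378 and 0.311 in wild type, 0.928, 2.04 and 4.01 in Pb-ERG, 0.978 and 0.431 in Trp53pcR172H/- and 0.916, 6.43 and 18.2 in double-mutant prostates (log2 difference 2.23, SE 0.655, adjusted p = 0.03). Ccl12, a mouse relative of Ccl2, was at 0.707, 0.686 and 1.06 in wild type and 1.68, 9.81 and 36.0 in double-mutant prostates (log2 difference 2.5, SE 0.731, adjusted p = 0.0294). Both calls were held in 11 of 20 other fits. Ccl7 (0.0664, 6.02 and 34.8) and Ccl8 (1.56, 28.2 and 189) fell below the wild-type range in double-mutant replicate 1 and far exceeded it in replicate 3, and their adjusted p was 0.104 and 0.261. Without double-mutant replicate 1 the adjusted p was 0.00166 for Ccl7 and 0.0156 for Ccl8. In Pb-ERG, Ccl8 was at 9.01, 44.8 and 79.1, all above the wild-type libraries at 3.90, 8.05 and 4.09. Ccr2, carried by inflammatory monocytes, followed the same order (0.20, 2.73 and 15.9 in double-mutant prostates, 0.456 to 1.04 in wild type; adjusted p = 0.244).

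Ccl6 and Ccl9, 2 mouse chemokines of myeloid cells that act on Ccr1, did not pass the test. Ccl6 was at 6.00, 15.9 and 8.88 in wild type and 2.03, 11.3 and 193 in double-mutant prostates, and Ccl9 was at 1.91, 4.25 and 2.36 in wild type and 0.849, 4.16 and 56.6 in double-mutant prostates. Only double-mutant replicate 3 exceeded wild type in both, and without it their log2 differences became negative (-0.79 for Ccl6 and -0.27 for Ccl9). Ccl4, an attractant of macrophages and T cells, rose from 0, 0.0931 and 0.288 in wild type to 0.806, 2.90 and 1.95 (log2 difference 1.29, SE 0.391, adjusted p = 0.0332). Ccl3 and Ccl5 were higher by 0.89 and 1.59 on the log2 scale without passing the test (adjusted p = 0.0793 and 0.0676).

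Of the receptors for these ligands, Ccr1 was at 0.419 to 0.890 in wild type and 1.11, 2.42 and 13.6 in double-mutant prostates (adjusted p = 0.079). Replicate 1 was the lowest and replicate 3 the highest double-mutant library for Ccl2, Ccl7, Ccl8, Ccl12, Ccl6, Ccl9, Ccr1 and Ccr2, and also for the macrophage sums (109, 211 and 633) and the neutrophil sums given above and for B and plasma cell markers, which summed to 3.01, 36.6 and 394. Their part in these results was not tested. Cxcl15, Cxcl17, Cx3cl1, Ccl25 and Cxcr4 were instead highest in double-mutant replicate 1. Without double-mutant replicate 1, 22 members were higher than wild type at 0.05 and 1 lower, and without replicate 3, 10 were higher and 4 lower. The calls over all genes in these fits are not given here, so the counts are not read as particular to the members.

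**Figure D4:**
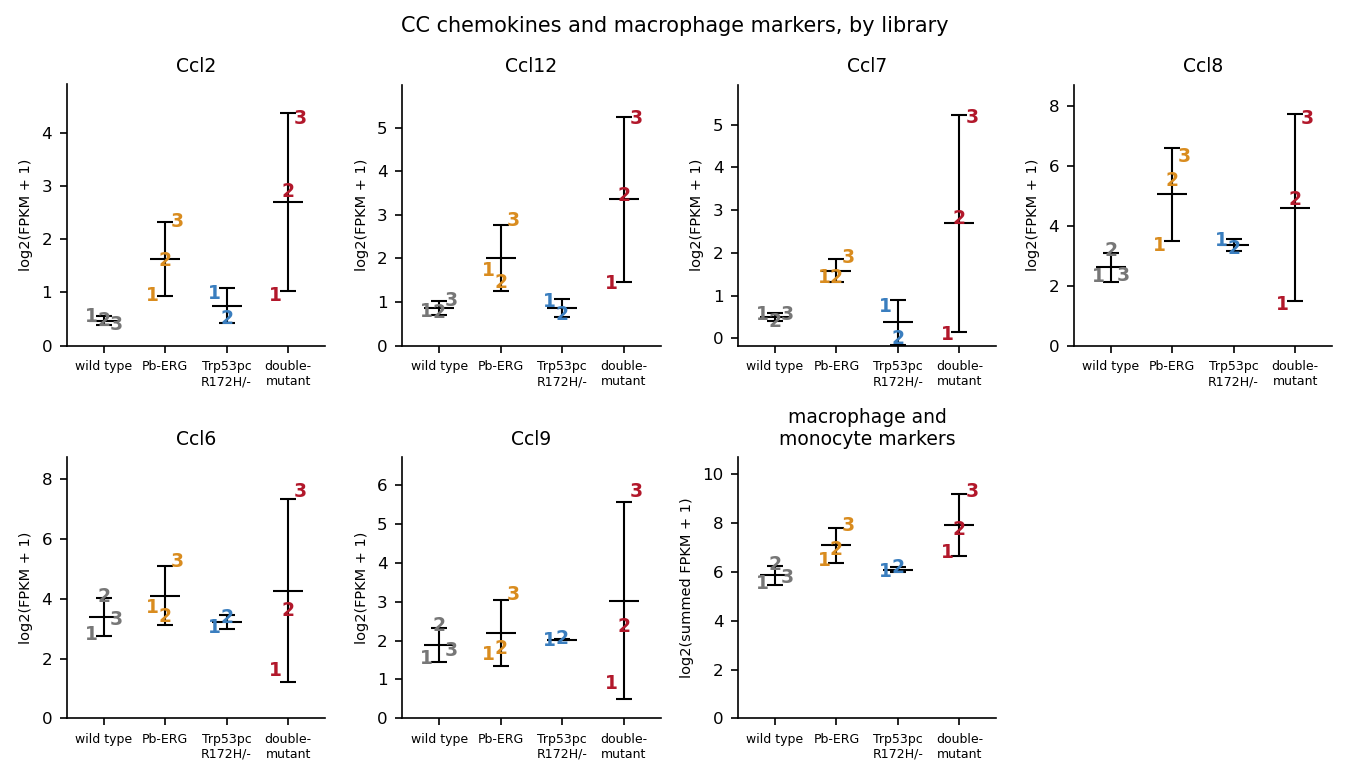
Log2(FPKM + 1) of 6 CC chemokines, and log2 of the summed FPKM + 1 of 11 macrophage and monocyte markers, by genotype, drawn as replicate numbers with the group mean and SD. In the double-mutant group replicate 1 is the lowest and replicate 3 the highest in all panels, and for Ccl7, Ccl8, Ccl6 and Ccl9 replicate 1 lies below all wild-type libraries.

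Ccl11, or eotaxin, which attracts eosinophils through Ccr3 and is made by stromal cells, was the 1 ligand that fell. It was at 13.6, 18.6 and 10.01 in wild type, 4.29, 4.55 and 5.48 in Pb-ERG, 13.0 and 9.58 in Trp53pcR172H/- and 0.934, 1.70 and 10.7 in double-mutant prostates. Double-mutant replicate 3 lay within the wild-type range, whereas all Pb-ERG libraries were below it. Between double-mutant and wild type the log2 difference was -1.90 (SE 0.532, adjusted p = 0.0245), and without double-mutant replicate 3 it was -2.68 (adjusted p = 0.000227). For Ccl24, another ligand of Ccr3, double-mutant values ranged from 0.124 to 3.80 and wild-type values from 0.589 to 2.34 (adjusted p = 0.898), and Ccr3 reached 1.35 in double-mutant replicate 3 only.

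The scavenging receptors did not move alike. Ackr4, which removes Ccl19, Ccl21 and Ccl25, was at 6.45, 4.92 and 6.46 in wild type, 5.86, 3.15 and 4.31 in Pb-ERG, 4.2 and 3.93 in Trp53pcR172H/- and 2.13, 2.53 and 2.06 in double-mutant prostates, which lay below all others (log2 difference -1.10, SE 0.206, adjusted p = 0.00345). It passed 0.05 in all 20 other fits. Exons of Ackr4 overlap exons of Acad11 on the opposite strand. Ackr1, a receptor of venules and red cells, ranged from 0.138 to 2.75 in the double-mutant group and from 0.697 to 1.06 in wild type (adjusted p = 0.932), and Ackr2 did not exceed 0.650. The 5 smooth muscle markers summed to 1105 to 1602 in wild type, 283 to 1320 in Pb-ERG, 1223 and 2070 in Trp53pcR172H/- and 77.4, 119 and 418 in double-mutant prostates, and the 3 basal epithelial markers to 15.2 to 33.8 in wild type and 0.694 to 5.93 in the double-mutant group. No smooth muscle or basal marker was at 0 in any library. Their part in the lower Ccl11, Ackr3 and Ackr4 values was not tested.

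**Figure D5:**
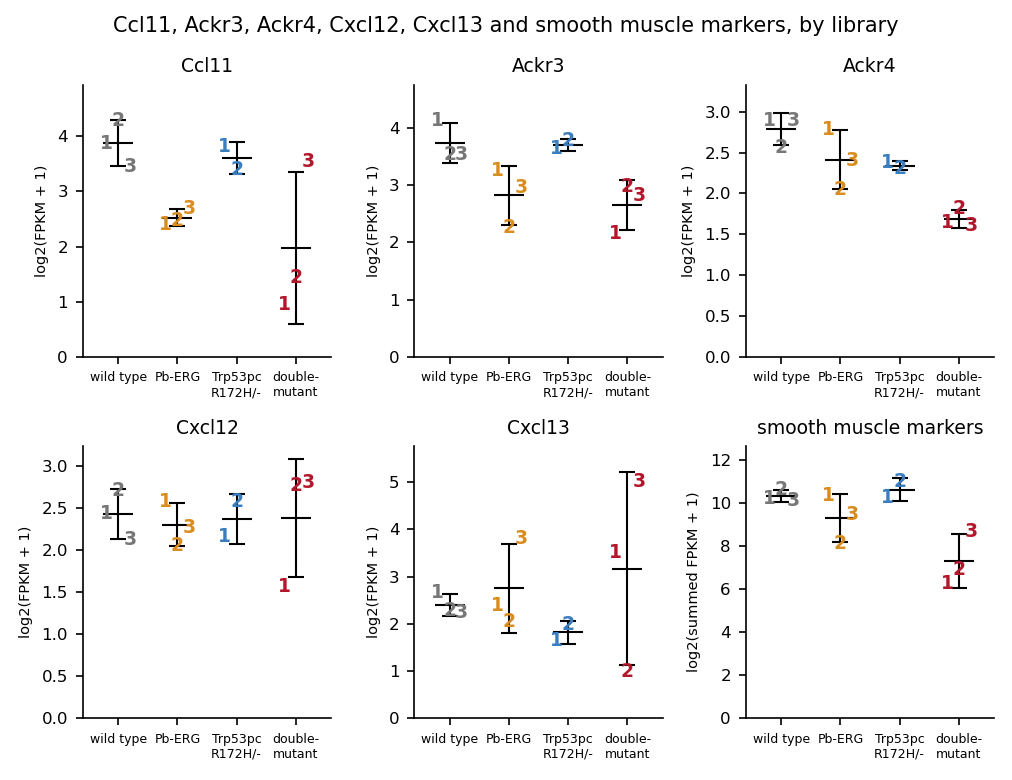
Log2(FPKM + 1) of Ccl11, Ackr3, Ackr4, Cxcl12 and Cxcl13, and log2 of the summed FPKM + 1 of 5 smooth muscle markers, by genotype, drawn as replicate numbers with the group mean and SD. The double-mutant libraries lie below all wild-type libraries for Ackr3 and Ackr4, whereas Ccl11, Cxcl12 and Cxcl13 overlap.

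Homeostatic ligands place lymphocytes in lymphoid and mucosal tissue. Ccl25, a ligand of Ccr9, was at 1.31, 1.38 and 0.936 in wild type and 3.49, 2.32 and 2.20 in double-mutant prostates (log2 difference 0.72, SE 0.207, adjusted p = 0.0271), and its exons overlap those of Elavl1 on the opposite strand. Ccl28, a mucosal ligand of Ccr10, was at 0.165, 0.0987 and 0.102 in wild type, 0.893, 0.891 and 1.18 in Pb-ERG, 0.162 and 0.112 in Trp53pcR172H/- and 0.413, 1.17 and 0.854 in double-mutant prostates (log2 difference 0.67, SE 0.207, adjusted p = 0.0363). All libraries with the transgene were above all without it. The same held for its receptor Ccr10, which did not pass the filter, with 0 to 0.0825 in wild type and Trp53pcR172H/- and 0.161 to 0.634 in the others. Ccl17, which attracts T cells that carry Ccr4, was at 0.370, 0 and 0.123 in wild type and 1.24, 1.08 and 3.53 in double-mutant prostates (log2 difference 1.26, SE 0.392, adjusted p = 0.0377).

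Cxcl13, the B cell attractant, ranged from 3.73 to 5.35 in wild type and was at 10.4, 0.974 and 31.3 in double-mutant prostates (adjusted p = 0.508). Ccl21a, a ligand of Ccr7 with near-identical gene copies that can share its reads, was listed at 0 in double-mutant replicate 1 and at 2.03 and 12.2 in the others (adjusted p = 0.549). Ccl27a (adjusted p = 0.301) and Xcl1 (0.121 to 1.41 in wild type and 0.407, 4.01 and 3.55 in double-mutant prostates, adjusted p = 0.136) did not pass, and Ccl19, Ccl20 and Ccl1 did not exceed 1.03. Of their receptors, Ccr7 was at 0 to 0.0311 in wild type and at 0.242, 0.912 and 1.78 in the double-mutant group, untested, Xcr1 and Cxcr5 stayed under 0.812, and Ccr4, Ccr6, Ccr8 and Ccr9 under 0.368.

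Some members of a gene cluster differed from their neighbours. On chromosome 5, Cxcl5, Cxcl3, Cxcl15, Cxcl1 and Cxcl2 lie within chr5:90759299-90905909. In double-mutant replicate 1, Cxcl15 was at 138 while Cxcl5, Cxcl2 and Cxcl3 were at 0.0643, 0.353 and 0. Cxcl1, also higher in the double-mutant group at 0.05, was at 2.73 in that library. In the cluster chr11:82035571-82179812, Ccl2, Ccl7, Ccl12 and Ccl8 were higher in double-mutant replicate 3 than in any wild-type library, and Ccl11, which lies between Ccl7 and Ccl12, was not. In chr8:94745590-94812035, Cx3cl1 and Ccl17 were both higher in the double-mutant group at 0.05, and Ccl22 did not exceed 0.945.

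The next comparison asked what the transgene does without mutant Trp53. No member passed 0.05 between Pb-ERG and wild type in limma (0 of 40; 17 of 40 at an unadjusted p under 0.05, and 1 of 40 in limma-voom), where 1.58% of all genes were higher and 0.321% lower. The largest log2 differences were 2.83 for Cxcl15 (SE 0.726, adjusted p = 0.0759), 2.45 for Ccl8 (adjusted p = 0.30) and 2.24 for Cxcl17 (adjusted p = 0.154). The smallest adjusted p were those of Cx3cr1 (0.067; log2 difference 1.23), Ccl28 (0.0727; 0.82) and Cxcl16 (0.073; 1.46). The median log2 difference was 0.911 over the 40 members and 0.13 over all genes. All 3 Pb-ERG libraries lay above all 3 wild-type libraries for 18 of 35 ligands and 10 of 22 receptors and below for 1 ligand (Ccl11) and 1 receptor (Ackr3), against 16.4% and 4.49% of all loci. The calls over all genes split into 246 higher and 50 lower, or 276 and 146 with median-of-ratios scaling. Pb-ERG replicate 1 was the lowest Pb-ERG library for Cxcl15, Cxcl17, Cxcl16, Cxcl14 and Cx3cr1. Without it 11 members were higher at 0.05 and none was lower, in a fit that called 1068 of 15583 genes higher and 244 lower (8.42% in all). Pb-ERG replicate 1 also had the highest seminal vesicle sum of its group (24908 against 61.9 and 67.3). Its smooth muscle sum was the highest as well (1320 against 283 and 705). The part of these tissues in the counts was not tested.

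Mutant Trp53 alone moved no member past the test. Between Trp53pcR172H/- and wild type 0 of 40 members had an adjusted or unadjusted p under 0.05 in limma (in limma-voom, 0 had an adjusted and 1 an unadjusted p under 0.05), and 0.00642% of all genes had an adjusted p under 0.05. The median log2 difference was 0.155. The largest were Ccl5 at 0.93 (SE 0.65), Cxcl16 at 0.90 (SE 0.414) and Cxcr6 at 0.78 (SE 0.55), each with an adjusted p of 1. The group had 2 libraries, so that smaller changes were not detectable.

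The double-mutant group was then set against each single genotype. Relative to Pb-ERG, 3 members were higher at 0.05 and 0 lower (7.16% and 1.95% of all genes): Cxcr4 (log2 difference 1.62, SE 0.255, adjusted p = 0.00403), Cx3cr1 (1.09, SE 0.299, adjusted p = 0.0467) and Cxcl15 (2.72, SE 0.726, adjusted p = 0.0415). None passed 0.001 (0 of 40 in limma and limma-voom; 7 of 40 at an unadjusted p under 0.05). Cxcr4 was past 0.05 in 19 of 20 other fits, Cxcl15 in 7 and Cx3cr1 in 3, and with leaving out any 1 wild-type or Trp53pcR172H/- library only Cxcr4 passed. Same-numbered libraries of these 2 groups deviated together, though weakly (r = 0.126, 0.249 and 0.33). When the replicate number was added as a block, the members past 0.05 were Cxcr4 (adjusted p = 0.0119), Cx3cr1 (0.036) and Cxcl14 (0.0221), while Cxcl15 did not pass. With the class of small non-coding RNA, which separates these 2 groups completely, as a covariate, 0 members passed, Cxcr4 included (adjusted p = 0.171). Relative to Trp53pcR172H/-, 9 members were higher at 0.05 and 0 lower, against 11.5% and 3.27% of all genes: Cxcl1, Cxcl14, Cxcl15, Cxcl16, Cxcl17, Cx3cl1, Cxcr1, Cxcr4 and Cx3cr1. The largest log2 differences among them were 5.35 for Cxcl15 (SE 0.811, adjusted p = 0.00196) and 3.69 for Cxcl17 (SE 0.864, adjusted p = 0.0165), and Cxcl15 and Cxcr4 were the members past 0.05 in all 20 other fits. None of the 9 passed 0.001 (0 of 40 in limma and limma-voom; 22 of 40 at an unadjusted p under 0.05). With either of the other scalings Ackr3 and Ackr4 were lower than in Trp53pcR172H/-, and Ackr4 than in Pb-ERG, at 0.05, and the calls over all genes split into 1468 higher and 1203 lower against Trp53pcR172H/- and 1067 and 702 against Pb-ERG with median of ratios, instead of 1791 and 509, and 1115 and 304. Leaving out double-mutant replicate 1 raised the count against Trp53pcR172H/- at 0.05 to 16. Calls over all genes in that fit are not given here, so this count is not read as particular to the members. Leaving out a Trp53pcR172H/- library leaves 1 in that group, so no count is read from it. No member passed 0.05 for the interaction, the test of whether the combination differs from the sum of both single changes (0 of 40 in limma and limma-voom; 3 of 40 at an unadjusted p under 0.05; 0.468% of all genes). These comparisons share libraries and are not independent of each other.

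Genes around the chemokines in the pathway were read from lists of known members, in the comparison of double-mutant with wild type at 0.05, where 19.1% of all genes were higher and 6.26% lower. Of 23 tested genes of chemokine receptor signalling, 7 were higher and 1 lower. The 7 included Elmo1 (log2 difference 1.62, adjusted p = 0.00174), which with Dock2 activates Rac, the lipid kinase subunit Pik3cd (1.17, adjusted p = 0.0197), the Rac activator Prex1 (1.19, adjusted p = 0.00742) and the receptor kinase Grk6 (1.11, adjusted p = 0.00374), and the 1 that fell was the G protein subunit Gnao1 (-1.13, adjusted p = 0.0036). Of 12 regulators and targets of NF-kappaB, 8 were higher and 0 lower, with Bcl3 (3.10, adjusted p = 0.000139) and Nfkbiz (1.77, adjusted p = 0.000566) past 0.001. Relb, Nfkbiz, Nfkbie and Bcl3 were also higher in Pb-ERG than in wild type at 0.05. Of 15 interferon-induced genes, 9 were higher, among them Isg15 (3.14, adjusted p = 0.0146) and Irf7 (2.87, adjusted p = 0.0195), which were at 4.43 and 5.47 in double-mutant replicate 1 and 60.6 and 53.2 in replicate 2, the library in which Cxcl10 was highest. Of 7 tested cytokines, Tgfb1 (2.63, adjusted p = 8.05e-05) and Il1b (1.80, adjusted p = 0.0351) were higher and Il18 (-1.81, adjusted p = 0.0203) was lower; Tnf did not pass (0.68, adjusted p = 0.0955), and Ifng did not exceed an FPKM of 0.271 in any library.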

How the data were processed

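RNA from mouse prostate tissue was sequenced in 11 libraries of 4 genotypes, grouped by the sample titles. According to the sources, RNA was extracted with RNeasy kits, libraries were made with TruSeq RNA v2 and sequenced as paired ends on an Illumina HiSeq, and reads were aligned with STAR to GRCm38 (mm10; version 2.5.2b in the submitters' processing notes). The values deposited by the authors are FPKM from RSeQC, 1 value per gene locus and library. The files give no totals, so these were recovered from short loci, where 99.16% to 99.66% of values were whole fragments within 0.0001, and the exon length of a locus was taken as the smallest that gave whole fragments in all 11 libraries. Symbols matched a current mouse symbol for all 57 members. Of the members counted, 1 is not reported here by name or value. The rule for the members uses symbols alone, but this gene family and the lists were chosen with earlier results of these data known.

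Genes that reached an FPKM of 1 in 2 or more libraries (15583 of 29291) were fitted on log2(FPKM + 1) with limma 3.58.1 in R 4.3.3, with 1 mean per group, all 11 libraries, 7 residual degrees of freedom and a mean-dependent prior variance. P-values are two-sided and Benjamini-Hochberg adjusted over these genes, with thresholds of 0.001, as in the study, and 0.05. The fit and the recovery were tested on simulated data. Nothing in the labels pairs the mice, but same-numbered Pb-ERG and double-mutant libraries deviated together from their group means (r = 0.126, 0.249 and 0.33), so for that comparison the blocked fit is given beside the result. These correlations are weak and not particular to that pair of groups. Same-numbered wild-type and Trp53pcR172H/- libraries had r = 0.234 and 0.351. Named were all members past 0.001, or past 0.05 against wild type, the most abundant members and the ligand-receptor pairs; other members are given by range. Alternatives were a pseudocount of 0.1, no filter or a filter at 0.1, 2 other scalings, only the compared groups, a replicate block, a small-RNA class (4% or more) as covariate, limma-voom on recovered fragments, and leaving out each library. Intervals and floors (3 fragments) cover counting error only. P-values rest on the spread between mice within groups, pooled over all groups. The spread of a single group can differ from it: the SD of Ccl8 was 102 in double-mutant and 2.35 in wild-type prostates.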

Additional observations from a re-analysis of the deposited data

How the results depend on the processing

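Between double-mutant and wild type, 4 members passed 0.001. That count was 6 with a pseudocount of 0.1 and 3 with the filter at 0.1. It was 2 with median-of-ratios scaling, trimmed-mean scaling, the replicate block or limma-voom. With only the compared groups it was 1, and with no filter or with the small-RNA class covariate it was 0. When 1 library was left out it was 0 to 4 (0 without any 1 wild-type replicate or without double-mutant replicate 2, and 2 without double-mutant replicate 3). The threshold of 0.05 gave 20. There the count was 23 with a pseudocount of 0.1, 22 with the filter at 0.1, 13 with no filter and 9 with the class covariate. It was 21 with the replicate block and 9 to 23 with 1 library left out. For Pb-ERG against wild type the 0.05 count of 0 became 5 with a pseudocount of 0.1 or with only the compared groups, 1 with the filter at 0.1 or limma-voom, and 0 to 11 with 1 library left out (11 without Pb-ERG replicate 1, 3 without double-mutant replicate 1 and 2 without double-mutant replicate 3). For double-mutant against Pb-ERG, 0 members passed 0.001 and 3 passed 0.05, which became 1 with no filter, with the filter at 0.1 or with only the compared groups, 0 with the class covariate and 1 to 6 with 1 library left out. For double-mutant against Trp53pcR172H/-, 0 passed 0.001 (0 to 1 with 1 library left out) and 9 passed 0.05 (4 to 16). No alternative gave a member for Trp53pcR172H/- against wild type or for the interaction. The replicate block, run in all comparisons, changed no count at 0.05 by over 1.5 times; outside the comparison with Pb-ERG it lost Ccl28 (adjusted p = 0.0514) and gained Ccl5 (0.0449) and Ccr1 (0.0389) against wild type, and lost Cxcl16 (0.0621) and Cxcr1 (0.0851) against Trp53pcR172H/-. An adjusted p depends on all genes of a fit, so these counts are not read as particular to the members. The causes of these changes were not tested.

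Among single members, the log2 difference from wild type in the double-mutant group changed sign for Ccl6 (-0.79 to 2.21 with 1 library left out), Ccl9 (-0.27 to 2.21) and Cxcl13 (-0.15 to 1.87), each lowest without double-mutant replicate 3, and for Cxcl12 (-0.26 to 0.36), which was above 0 without wild-type replicate 2 (0.098) or double-mutant replicate 1 (0.36). Of 1120 values of single members under the alternatives, 885 kept their direction and side of the threshold, 196 lost and 34 gained the threshold, and 5 changed sign. Few fragments limit the precision of the values of several members. Cxcl3, Ccr8 and Ccl1 had fewer than 10 fragments in most libraries, and Ccl19 and Ccr6 had at most 5 and 9 in any library. The limit also covers called members in wild type, where for example Ccl4 had 0, 1 and 3 fragments and Ccl17 had 4, 0 and 1.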

Other observations

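Genes that act with chemokines but carry other symbols were read from a list of 10, of which 8 were tested. At 0.05, 3 of these were higher in double-mutant than in wild-type prostates (limma, adjusted over 15583 genes). In the same comparison 19.1% of all tested genes were higher and 6.26% lower, so the count is not read as particular to this list. Mif, a cytokine that also binds Cxcr4, was at 72.6, 52.9 and 56.8 FPKM in wild type and 189, 114 and 133 in the double-mutant libraries (log2 difference 1.22, adjusted p = 0.0153). The chemerin receptor Cmklr1 was at 1.60, 2.75 and 1.34 in wild type and 5.76, 4.93 and 7.37 in the double-mutant libraries (log2 difference 1.29, adjusted p = 0.0104). Gpr35, an orphan receptor, was at 0.0424, 0.11 and 0.0424 in wild type and 0.499, 1.12 and 1.47 in the double-mutant libraries (log2 difference 0.90, adjusted p = 0.0156). Rarres2, which encodes chemerin, was at 22.0, 74.7 and 31.4 in wild type and 108, 46.8 and 108 in the double-mutant libraries, which overlapped (adjusted p = 0.144). Dpp4, a protease that trims chemokines, was at 43.0, 29.0 and 35.0 in wild type and 17.5, 28.6 and 22.5 in the double-mutant libraries (adjusted p = 0.152). The platelet chemokine Pf4 was at 4.94, 8.81 and 4.11 in wild type and 0.998, 3.83 and 27.2 in double-mutant replicates 1 to 3 (adjusted p = 0.974), the same order as that of Ccl6 and Ccl8.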
